A study of Homo sapiens with 6 samples.

Results

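Transcripts that moved alike under both TIP-1 hairpins were sought by setting 4 TIP-1 shRNA clones of MDA-MB-231 against 2 control shRNA clones. MDA-MB-231 is a human cell line from a triple-negative breast carcinoma. Of the 6 arrays, 2 held independent clones with a control short hairpin RNA (shRNA), 2 held clones with TIP-1 shRNA 162 (labelled B1 and B4) and 2 held clones with TIP-1 shRNA 159 (labelled A1 and A4). The hairpin sequences were not used here. All 6 cultures were trypsinised, reseeded in fresh medium and kept overnight before RNA was taken, and each clone was hybridised to a single Affymetrix Human Gene 1.0 ST array. A clone descends from few cells, so a difference between clones can include what set those cells apart before the hairpin acted, and this cannot be told apart from an effect of the hairpin. The change with each hairpin is its clone mean minus the control mean on the log2 scale, and the change for both is the mean of those 2 values, so that each hairpin weighs the same.

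A row of the array table was called when its change for both hairpins had a limma adjusted p under 0.05 over the 21214 rows with a gene symbol. It was counted as concordant when, besides, all 4 shRNA clones lay on 1 side of both control clones and the smaller of the 2 hairpin changes was at least 0.67 (2/3) of the larger. By this rule 330 of 21214 rows were concordant (1.56%), 212 higher (0.999%) and 118 lower (0.556%) than control. Since the rule uses the changes themselves, membership describes these arrays and is not a test.

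TIP-1 is the product of TAX1BP3, a small protein that consists almost wholly of a single PDZ domain. Such domains hold the carboxyl ends of other proteins, and TIP-1 can occupy the ends of beta-catenin and other partners without bringing in a further domain of its own. A short hairpin lowers its target by giving rise to a small RNA that guides cleavage of the messenger. Each hairpin can also lower transcripts that share its seed, so transcripts that move with unrelated hairpins against the same target are the usual first choice for follow-up.

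The arrays had medians between 7.37 and 7.44 on the log2 scale and no count of depth, and their number limits the precision. The line's markers VIM, CD44, CAV1 and EGFR stood at 13.18, 13.33, 12.84 and 10.28 in the control clones (means, log2), all above the upper quartile of every array (8.99 to 9.08). S100A4, which was also listed as a high marker, stood at 6.87, below the median of every array. Of 7 markers listed as low, PGR (6.05), CDH1 (6.37), ESR1 (6.39) and KRT5 (6.98) lay below the array medians, and GATA3 (7.89), FOXA1 (7.94) and ERBB2 (8.11) lay above them. Of 13 listed markers of the line none was called. With 4.62% of all rows called, short marker lists can hold none, so this does not show that the markers were stable. Of 5 endothelial markers, all lay below the array medians in the control clones (5.92 to 7.14) and none was called. Of 5 fibroblast markers none was called either, with LUM at 3.6 and DCN at 4.49 but COL3A1 at 7.55 and COL1A1 at 8.51. The 6 melanocyte and neural markers ranged from 5.44 to 7.67 with none called. Among 7 leukocyte markers PTPRC (4.97) and CD3E (6.26) were low, while CD68 (11.74), LAPTM5 (11.75) and LCP1 (11.49) were high in these tumour cells. The part of other cells in the results was not tested.

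The targeted transcript was itself concordant. The TAX1BP3 row read 11.65 and 11.56 in the control clones, 9.85 and 10.01 with shRNA 162, and 10.40 and 10.40 with shRNA 159. The lowest control clone stood 1.16 above the highest shRNA clone. The change for both hairpins was -1.44 (SE 0.07, limma adjusted p = 4.7e-05), and the exact two-sided permutation test of 4 against 2 clones gave p = 0.0667, the smallest that 15 splits allow. Knockdown was deeper with shRNA 162, by 0.47 (95% interval 0.28 to 0.66), and the smaller change was 0.72 of the larger. The platform table gives this row a second name as well, P2RX5-TAX1BP3, for transcripts that run through from the neighbouring gene.

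Promoter sequences are shown for the pair of genes with the largest increase shared by both hairpins, TULP3 and BCHE. They are also shown for a pair of those with the largest shared decrease, F2RL2 and CD96. HAS2, whose smaller hairpin change (1.44 in size) exceeded that of CD96 (1.27), is not shown. The sequences were taken from RefSeq (build GRCh38.p14), run 5′ to 3′ on the gene's strand and span 250 bases before the start and 50 after it. TULP3 is at chr12:2890641-2890940 on the plus strand, BCHE at chr3:165837374-165837673 on the minus strand, F2RL2 at chr5:76623354-76623653 on the minus strand and CD96 at chr3:111541947-111542246 on the plus strand. Capitals mark a match to any of 4 motifs searched on both strands: CTTTGA (the core read by TCF/LEF, the partners of beta-catenin), TGANTCA (AP-1), GGAATG (TEAD) and the interferon response core (GAAA, any 2 bases, GAAA).
TULP3: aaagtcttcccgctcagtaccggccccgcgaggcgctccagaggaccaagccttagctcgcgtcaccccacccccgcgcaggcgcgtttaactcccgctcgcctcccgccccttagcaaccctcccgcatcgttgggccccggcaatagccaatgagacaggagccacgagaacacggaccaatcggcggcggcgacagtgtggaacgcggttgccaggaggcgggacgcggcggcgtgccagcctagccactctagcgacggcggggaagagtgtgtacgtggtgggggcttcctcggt
BCHE: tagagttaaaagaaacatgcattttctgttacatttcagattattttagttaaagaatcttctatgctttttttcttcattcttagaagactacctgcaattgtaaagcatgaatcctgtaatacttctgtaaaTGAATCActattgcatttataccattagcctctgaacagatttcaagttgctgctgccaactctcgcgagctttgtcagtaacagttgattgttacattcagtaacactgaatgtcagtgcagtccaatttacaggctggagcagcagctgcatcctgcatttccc
F2RL2: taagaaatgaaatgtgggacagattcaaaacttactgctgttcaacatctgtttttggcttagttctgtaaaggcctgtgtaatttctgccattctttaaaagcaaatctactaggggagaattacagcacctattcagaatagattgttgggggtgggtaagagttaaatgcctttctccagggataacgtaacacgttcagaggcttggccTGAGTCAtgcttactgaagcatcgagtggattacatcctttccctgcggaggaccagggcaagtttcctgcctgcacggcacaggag
CD96: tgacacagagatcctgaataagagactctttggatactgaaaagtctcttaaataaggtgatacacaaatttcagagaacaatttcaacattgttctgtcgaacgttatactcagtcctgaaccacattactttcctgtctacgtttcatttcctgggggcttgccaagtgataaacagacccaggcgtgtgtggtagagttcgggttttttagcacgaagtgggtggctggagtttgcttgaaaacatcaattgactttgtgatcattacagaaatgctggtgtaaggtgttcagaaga
The BCHE and F2RL2 windows each held 1 AP-1 match and no match to the other 3 motifs, and the TULP3 and CD96 windows held none. Over all genes with a promoter in the table (14239 of 18417), 11% held the TCF/LEF core, 5.58% AP-1, 11.6% TEAD and 3.04% the interferon motif. For the concordant genes that were higher (143 promoters) the shares were 9.09%, 4.90%, 9.79% and 2.10%, and for those that were lower (83 promoters) 13.3%, 3.61%, 8.43% and 3.61%. Median GC content was 65.7% in the promoters of the higher genes, 61.3% in those of the lower genes and 63.0% overall. A match is a run of letters and not a site shown to be bound.

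The path from called to concordant rows was as follows. For both hairpins minus control 980 of 21214 rows were called (4.62%), 639 higher (3.01%) and 341 lower (1.61%), with 4192 rows at an unadjusted p under 0.05. Of the 980, 865 (88.3%) had all 4 shRNA clones on 1 side of both controls, against 21.9% of all rows (13.0% above and 8.90% below). The call and the side rest on the same values, so a higher share among called rows is built in. The other 115 were called although the shRNA clones did not all lie on 1 side of both controls. Taken alone, shRNA 162 gave 2019 called rows against control (9.52%) and shRNA 159 gave 537 (2.53%), while 1836 (8.65%) differed between the hairpins. Of the 865, 330 agreed in size and 535 did not. Among the 535, the change was larger with shRNA 162 in 362 rows and with shRNA 159 in 173. Among the concordant rows it was larger with shRNA 162 in 197 and with shRNA 159 in 133.

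Most concordant changes were small. The median change for both hairpins was 0.44 in the concordant rows that were higher and -0.44 in those that were lower. A smaller hairpin change of at least 0.5 was reached by 54 higher and 31 lower rows. Only 12 rows passed 2-fold with each hairpin, 4 higher (TULP3, BCHE, SEMA3A and CDK6) and 8 lower (F2RL2, HAS2, CD96, RGS4, SERPINB9, TAX1BP3 and a pair of identical SPANXB1 rows). Concordant rows were seldom dim: 16 of 330 (4.85%) lay below the lower quartile of both control arrays, against 12.7% of all rows, and their median control level was 8.54 (higher) and 8.97 (lower) against 7.89 overall.

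**Figure D1:**
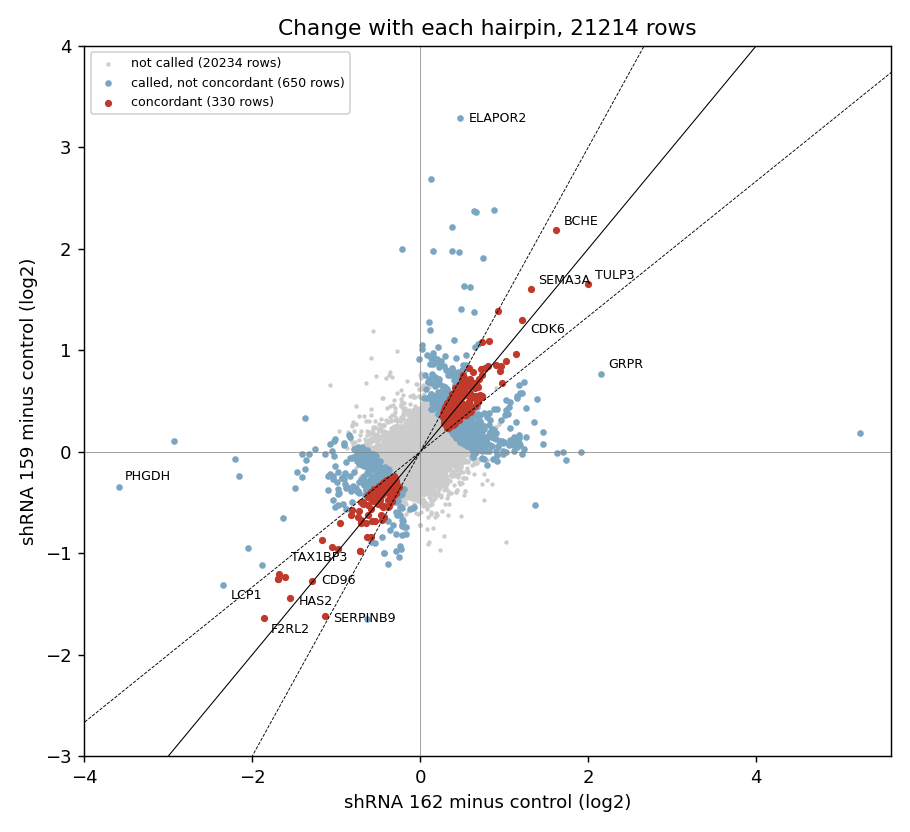
Change with shRNA 162 (horizontal) against change with shRNA 159 (vertical), both minus control on the log2 scale, for all 21214 rows; grey points are rows not called, blue are called rows that are not concordant and red are the 330 concordant rows. The solid line marks equal changes and the dashed lines the limit of 2/3; TULP3, CDK6, HAS2 and CD96 lie near equality, while PHGDH and ELAPOR2 lie near 1 axis. Both axes share the same control clones, so the spread of points along the diagonal is not a measure of agreement.

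How many rows were called depended on which spread served as the error. When all shRNA clones formed 1 group of 4, so that the spread between hairpins enters the error, 71 rows were called (0.335%), and with the hairpin as a random block 27 (0.127%), 14 higher and 13 lower. All 71 and all 27 were among the 330 concordant rows. Unequal hairpins add to the error in both fits, so this overlap largely follows from the rule and is no separate evidence. Without control clone 1 the concordant rows numbered 45 higher and 24 lower, and without control clone 2 they numbered 38 and 28. Without shRNA 162 clone 1 they numbered 122 and 64, and without clone 2 they numbered 87 and 53. In each of the 6 fits that leave out 1 clone, 27 higher and 20 lower concordant rows were still called. After quantile normalization the balance shifted, from 65.2% higher among the called rows to 55.2%, and from 64.2% to 56.9% among the concordant rows.

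**Figure D2:**
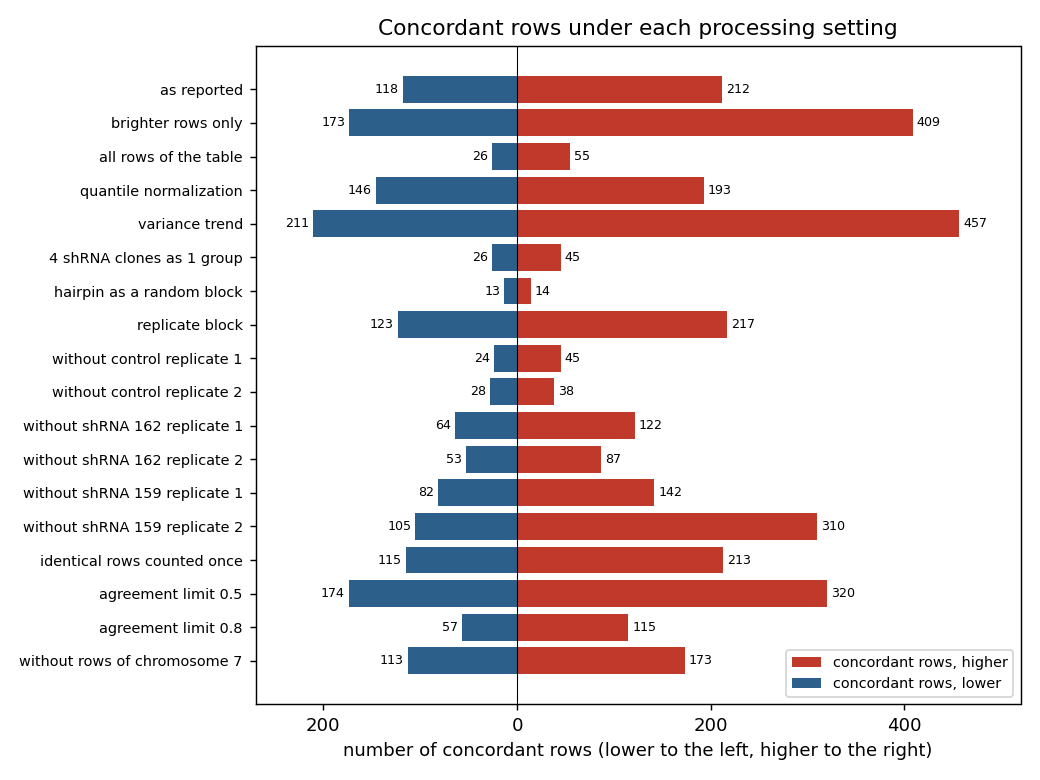
Number of concordant rows under each processing setting, with rows lower than control to the left of 0 and rows higher to the right. The reported setting gives 118 and 212, the hairpin as a random block 13 and 14.

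The largest increases included a ciliary adaptor and a secreted guidance cue. TULP3, which carries membrane proteins into the primary cilium together with the IFT-A complex, read 8.46 and 8.15 in the control clones, 10.21 and 10.40 with shRNA 162, and 10.06 and 9.86 with shRNA 159. Every shRNA clone lay at least 1.40 above the higher control. TULP3 rose by 1.83 (SE 0.11, 3.54-fold, limma adjusted p = 0.00011), and the hairpins differed by -0.34 (95% interval -0.63 to -0.06, shRNA 159 minus 162). SEMA3A, a secreted guidance cue that acts through neuropilin and plexin receptors, read 8.27 in either control clone, 9.59 and 9.58 with shRNA 162, and 9.94 and 9.80 with shRNA 159. SEMA3A rose by 1.46 (SE 0.07, 2.75-fold, limma adjusted p = 4.1e-05). Its clones formed 3 separate levels, and the hairpins differed by 0.29 (95% interval 0.11 to 0.47, limma adjusted p = 0.06).

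CDK6, the kinase that with D cyclins opens the G1 phase, had a smaller hairpin change at 0.93 of the larger. Agreement within the limit is required of every concordant row. CDK6 read 9.68 and 9.65 in the control clones, 10.85 and 10.92 with shRNA 162, and 11.10 and 10.84 with shRNA 159. The 4 shRNA clones overlapped each other and lay 1.15 or more above the controls. CDK6 rose by 1.26 (SE 0.09, 2.39-fold, limma adjusted p = 0.00025), and the difference between hairpins was 0.09 (95% interval -0.14 to 0.31). BCHE, which encodes the choline ester hydrolase butyrylcholinesterase, read 3.67 and 3.84 in the control clones, 5.20 and 5.56 with shRNA 162, and 6.11 and 5.77 with shRNA 159. The control readings lie below the lower quartile of both control arrays, so the increase of 1.90 (SE 0.13, limma adjusted p = 0.00023) is one of array signal and not an exact change in transcript level.

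The next increases ranged from 1.68-fold to 2.24-fold. IFI44, an interferon-induced protein, read 6.02 and 5.64 in the control clones, also below the lower quartile, and 6.69 to 7.08 in the shRNA clones, a rise of 1.05 (SE 0.12, limma adjusted p = 0.003). DOK4, a docking protein for receptor tyrosine kinases, went from 8.02 and 7.95 to 8.78 and 8.83 with shRNA 162 and to 9.15 and 9.01 with shRNA 159 (change 0.96, SE 0.07, limma adjusted p = 4e-04). HSPA13, a member of the HSP70 chaperone family found in microsomes, went from 8.87 and 8.83 to between 9.62 and 9.83 (change 0.88, SE 0.08, limma adjusted p = 0.0011). That these clones did not overlap the controls is required by the rule for concordant rows. IGF2BP3, an oncofetal protein that binds messenger RNA, read 8.13 and 8.22 in the control clones, 9.14 and 9.10 with shRNA 162, and 8.97 and 8.96 with shRNA 159 (change 0.87, SE 0.07, limma adjusted p = 0.00044). BUD23, a methyltransferase of ribosomal RNA, stood at 9.53 and 9.55 in the control clones and at 10.30 to 10.42 in the shRNA clones, a difference between hairpins of 0.04 (95% interval -0.13 to 0.22). BAIAP2L1, an adaptor that bends membranes and links them to actin, stood at 8.52 and 8.44 against 9.18 to 9.30, with a difference between hairpins of 0.02 (95% interval -0.16 to 0.21). For both BUD23 and BAIAP2L1 the ranges of the 2 hairpins overlapped.

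The other 5 of the 15 increases were RBM48 (change 1.16), C21orf91 (0.96), VPS50, a subunit of an endosomal tethering complex (0.91), SPATA6 (0.90) and RSBN1L (0.80). RBM48 stood at 0.67 of equality, just inside the limit, and the VPS50 changes of 0.74 and 1.08 differed between hairpins (limma adjusted p = 0.047). Of the 15 genes, 14 were called with the 4 clones as 1 group and 11 with the hairpin as a random block. RBM48 was not called in either (limma adjusted p = 0.061 and 0.094), and IFI44, SPATA6 and VPS50 were not called with the block (0.069 each). The 15 genes each way were picked as the largest shared changes in these same arrays. Fits that leave out a clone are therefore no separate evidence for them.

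The largest decreases included cell surface receptors and a regulator of their signalling. F2RL2, the protease-activated receptor PAR3, which assists thrombin signalling, read 9.02 and 8.76 in the control clones, 6.95 and 7.11 with shRNA 162, and 7.33 and 7.17 with shRNA 159. The highest shRNA clone lay 1.42 below the lower control. F2RL2 fell by 1.75 (SE 0.10, 3.35-fold lower, limma adjusted p = 7.1e-05), with a difference between hairpins of 0.22 (95% interval -0.03 to 0.47). CD96, a receptor of the nectin ligand PVR best known from T and NK cells, read 7.48 and 7.82 in the control clones, 6.35 and 6.39 with shRNA 162, and 6.33 and 6.44 with shRNA 159. The shRNA clones spanned 0.11 in all, less than the distance between the control clones. CD96 fell by 1.28 (SE 0.10, 2.42-fold lower, limma adjusted p = 0.00048), and the hairpins differed by 0.01 (95% interval -0.24 to 0.27).

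RGS4, which shortens signalling by G proteins of the Gi and Gq classes, read 8.30 and 8.39 in the control clones, 6.84 and 6.63 with shRNA 162, and 7.13 and 7.10 with shRNA 159. RGS4 fell by 1.42 (SE 0.08, 2.68-fold lower, limma adjusted p = 7.5e-05), further with shRNA 162 than with shRNA 159 by 0.38 (95% interval 0.17 to 0.59, limma adjusted p = 0.039). The intracellular granzyme B inhibitor SERPINB9 went the other way in depth. It read 8.60 and 8.45 in the control clones, 7.41 and 7.37 with shRNA 162, and 6.87 and 6.94 with shRNA 159. SERPINB9 fell by 1.38 (SE 0.07, 2.60-fold lower, limma adjusted p = 5.5e-05), further with shRNA 159 by 0.48 (95% interval 0.29 to 0.67 in size), while TAX1BP3 itself was lower with shRNA 162.

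HAS2, which makes hyaluronan at the plasma membrane, read 8.67 and 8.83 in the control clones, 7.40 and 7.01 with shRNA 162, and 7.38 and 7.23 with shRNA 159. The shRNA clones overlapped each other and lay at least 1.28 below the controls. HAS2 fell by 1.5 (SE 0.11, 2.82-fold lower, limma adjusted p = 0.00046), with a difference between hairpins of 0.10 (95% interval -0.19 to 0.40). ADAMTS1, a secreted protease that cleaves proteoglycans, went from 9.96 and 10.04 to 9 and 9.03 with shRNA 162 and 9.14 and 8.94 with shRNA 159. ADAMTS1 fell by 0.97 (SE 0.08, 1.96-fold lower, limma adjusted p = 0.00059), the hairpins differing by 0.02 (95% interval -0.18 to 0.23). PLOD2, the lysyl hydroxylase that prepares collagen for stable crosslinks, stood at 11 and 11.02 in the control clones and between 10.31 and 10.39 in all shRNA clones (change -0.67, SE 0.06, limma adjusted p = 0.0013). The clones of the 2 hairpins overlapped for HAS2 and ADAMTS1, while for PLOD2 both shRNA 159 clones lay slightly below both shRNA 162 clones. The glypican GPC6 (change -0.69) and the secreted proteoglycan ESM1 (-0.74) were lower too. GPC6 was called in 4 of the 6 fits that leave out a clone, with a limma adjusted p = 0.11 without control clone 1.

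AOX1, an aldehyde oxidase that carries a molybdenum cofactor, went from 9.48 and 9.39 to 8.37 and 8.39 with shRNA 162 and 8.56 and 8.43 with shRNA 159 (change -0.99, SE 0.07, limma adjusted p = 0.00032). SPANXB1, a cancer/testis antigen, read 10.28 and 10.13 in the control clones, 8.50 and 8.51 with shRNA 162, and 9 and 8.89 with shRNA 159. A further 3 rows annotated jointly to SPANXA1, SPANXA2, SPANXC and SPANXD were also concordant and lower, and since these copies are nearly identical the rows cannot be assigned to 1 gene. PSG4 (change -1.02), of the likewise close family of pregnancy-specific glycoproteins, has the same uncertainty. The remaining decreases were NRIP3 (-0.83), CCDC190 (-0.70) and EEIG2 (-0.69). Of the 15 genes that were lower, 14 were called as 1 group, 11 with the random block and 13 in each fit that leaves out a clone. EEIG2 was called in 4 of those 6 fits, with a limma adjusted p = 0.075 without control clone 1. GPC6 was not called as 1 group (limma adjusted p = 0.067). With the hairpin as a random block NRIP3, ESM1, EEIG2 and GPC6 were not called (limma adjusted p = 0.053, 0.069, 0.091 and 0.15).

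**Figure D3:**
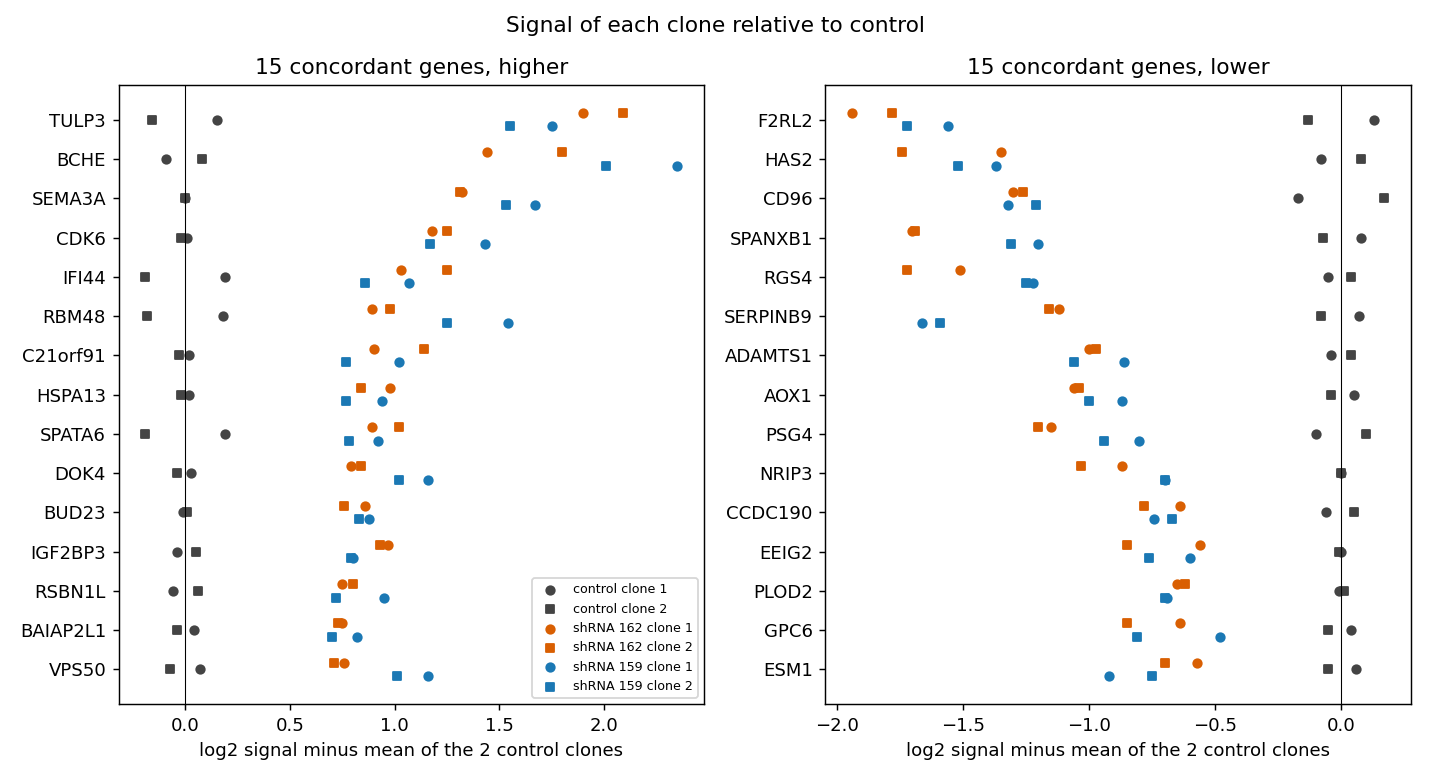
Log2 signal of each clone minus the mean of the control clones for the 15 concordant genes with the largest shared increase (left) and decrease (right); circles are clone 1 and squares clone 2 of each group, grey for control, orange for shRNA 162 and blue for shRNA 159. The shRNA clones of the increases lie at least 0.59 above the higher control clone and those of the decreases at least 0.43 below the lower one.

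Among the largest mean changes, several were unequal. LCP1, the actin bundler L-plastin, read 11.51 and 11.46 in the control clones, 9.10 and 9.18 with shRNA 162, and 10.18 and 10.16 with shRNA 159. It fell by 2.34 with shRNA 162 and by 1.31 with shRNA 159, at 0.56 of equality, and CDA, the cytidine deaminase of pyrimidine salvage, stood at 0.59. Neither LCP1 nor CDA was called with the 4 clones as 1 group (limma adjusted p = 0.084 and 0.067). SMARCA1, an ISWI chromatin remodeller, stood at 0.46, GRPR, the receptor of gastrin-releasing peptide, at 0.36, and the serine synthesis enzyme PHGDH and the vitamin D hydroxylase CYP24A1 at 0.10 and 0.11. The 4 largest unequal increases besides GRPR were all on chromosome 7: ELAPOR2 (0.14), TMEM243 (0.37), SLC25A40 (0.28) and DBF4 (0.27), each larger with shRNA 159. All 10 genes were called in every fit that leaves out a clone, and none as 1 group. Close to the limit among changes of at least 0.5, SELENOI and RBM48 (both 0.67) lay just inside and JMY (0.66) and GTPBP10 (0.65) just outside for increases, and CABYR and ALDOC (both 0.67) inside and a pair of TGIF1 rows (0.66 and 0.65) outside for decreases.

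Gene groups were read against the shares of all rows given above and a median change over all rows of 0.00072. No group was given a test. The lists were chosen with earlier results of these data known, so their counts are not results about the groups. Over all rows 3.01% were called higher and 1.61% lower. At 4.62% of all rows called and 1.56% concordant, a list with no member called, or a single one, is no result about the group. The cilium and hedgehog list held 4 called increases and 1 decrease among 47 measured genes (median change 0.04). Its 3 concordant members were TULP3, the IFT-A subunit WDR35 (0.59 with shRNA 162, 0.69 with shRNA 159) and the IFT-B subunit IFT172 (0.38 and 0.43). WDR35 and IFT172 both lie on chromosome 2. There IFT172 (change for both hairpins 0.41) is close to ZNF512 (0.44) and GPN1 (0.46), which were concordant and higher too. IFT20 rose and TTC8, a subunit of the BBSome, fell, both unequally. WDR35 was called in all 6 fits that leave out a clone but not with the hairpin as a random block (limma adjusted p = 0.065). IFT172 was called in 3 of the 6 fits that leave out a clone (limma adjusted p = 0.14 without control clone 1).

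Of 22 serpins, 3 fell and 0 rose (median change -0.0038), where 1.61% of all rows were called lower. All 3 were concordant: SERPINB9, SERPINE2, an inhibitor of thrombin and urokinase (-0.44 and -0.40), and SERPINB1, which inhibits neutrophil elastase (-0.42 and -0.33). Of 29 hyaluronan and proteoglycan genes 4 fell and 0 rose (median change -0.045). HAS2, GPC6 and the hyaluronan receptor LAYN (-0.32 with either hairpin) were concordant, while SRGN (-0.53 and -0.15) was not. In the hypoxia and glycolysis list 5 of 40 genes fell and 0 rose (median change -0.054), 4 of them concordantly. These were PLOD2, the aldolase ALDOC (-0.43 and -0.64), the mitophagy receptor BNIP3 (-0.32 and -0.34) and the lipase inhibitor ANGPTL4 (-0.37 and -0.37). HIF1A, which encodes the oxygen-regulated factor itself, fell by 0.84 with shRNA 162 and changed by -0.24 with shRNA 159. The smaller members depended on the control clones. Without control clone 1 the limma adjusted p was 0.22 for SERPINB1, 0.12 for SERPINE2 and 0.25 for LAYN, and without control clone 2 it was 0.27 for BNIP3, 0.31 for ANGPTL4 and 0.062 for ALDOC.

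Of 54 G protein-coupled receptors, 6 fell and 2 rose (median change -0.052). Besides GRPR, GPRC5A was called higher (0.66 and 0.28), unequally. F2RL2, the Wnt receptor FZD8 (-0.47 and -0.41) and the prostaglandin receptor PTGFR (-0.34 and -0.48) were concordant, whereas ADGRG1 moved with shRNA 162 alone in size (-1.33 and -0.02). RGS4 was the 1 of 21 RGS genes that was called (median change 0.0038), a share near the 4.62% of all rows. Of 41 adhesion molecules 5 fell and 2 rose (median change -0.042), with CD96, ALCAM (-0.31 and -0.33) and the protocadherin PCDH7 (-0.43 and -0.35) concordant. The mesenchymal cadherin CDH11 was called for both hairpins although its change was 1.91 with shRNA 162 and 0.00 with shRNA 159. EPCAM had the opposite form, 0.16 and 0.94. PCDH20 fell by 0.29 and 0.59. The small changes were not called without control clone 2 for FZD8, ALCAM and PCDH7 (limma adjusted p = 0.24, 0.22 and 0.26) and without control clone 1 for PTGFR (0.16).

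The interferon list shows how a mean over hairpins can rest on 1 of them. Of 50 genes 9 rose and 0 fell (median change 0.075), but IFI44 was the 1 concordant member. IFIT1 changed by 1.46 with shRNA 162 and 0.08 with shRNA 159, IFIT2 by 1.46 and 0.20, and IFIT3 by 0.78 and 0.08. SAMD9 (1.24 and 0.69) and SAMD9L (1.02 and 0.52), which lie side by side on chromosome 7, were closer to agreement. Among 40 NF-kB factors, cytokines and chemokines 3 rose and 1 fell (median change 0.041). The inflammatory cytokine IL6 rose concordantly (0.54 and 0.58) and IL1B fell concordantly (-0.68 and -0.49), whereas IL1A (1.25 and 0.43) and the NF-kB subunit REL (0.26 and 0.53) were called higher with unequal changes. IL1B was called in all 6 fits that leave out a clone but not with the hairpin as a random block (limma adjusted p = 0.088). For IL6 the limma adjusted p was 0.069 with that block and 0.058 without control clone 1.

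In the matrix lists, 6 of 49 extracellular matrix genes fell and 1 rose (median change -0.037), with the microfibril protein FBN1 (-0.46 and -0.53) and the collagen COL8A1 (-0.62 and -0.44) concordant. The collagen COL12A1 (-0.36 and -0.77) and MATN2 (-1.41 and -0.25) fell unequally, and LOXL2, a lysyl oxidase, rose unequally (0.75 and 0.07). Of 46 matrix proteases and inhibitors 3 fell and 3 rose (median change -0.073), with ADAMTS1 lower and ADAMTS6 higher (0.43 and 0.55) in concordance, and TIMP3 lower but unequal (-0.98 and -0.52). The urokinase gene PLAU rose unequally (0.24 and 0.47). Of 41 actin genes 4 fell and 1 rose (median change -0.11). There PFN2, a profilin (-0.33 and -0.32), and SVIL, supervillin (0.42 and 0.29), were the concordant members, while the smooth muscle actin ACTG2 changed by -2.93 and 0.11. PFN2 was called in 0 of the 6 fits that leave out a clone (limma adjusted p = 0.32 without control clone 2) and SVIL in 1 (0.24 without control clone 1). For COL8A1, FBN1 and ADAMTS6 the limma adjusted p without control clone 1 was 0.21, 0.079 and 0.19. No integrin or focal adhesion gene of 37 was concordant, against 1.56% of all rows. The median change of that list was -0.03, with PARVA called lower and FERMT1 higher, both unequally.

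Among axon guidance genes 4 of 39 rose and 2 fell (median change -0.019), and the ligand SEMA3A and the semaphorin receptor PLXNA1 (0.52 and 0.36) rose concordantly. SEMA3E rose (0.16 and 0.70) and the guidance ligand SLIT2 fell (-0.92 and -0.25), both unequally. SEMA3A and SEMA3E both lie on chromosome 7. Of 56 receptor tyrosine kinases and ligands 5 fell and 1 rose (median change -0.054). The ephrin receptor EPHA4 was concordant (-0.54 and -0.68), and its ligand EFNB2 (-0.74 and -0.40), FGF1 (-0.93 and -0.26) and NRG1 (1.25 and 0.14) were not. EPHA4 was called in all 6 fits that leave out a clone but not with the hairpin as a random block (limma adjusted p = 0.069), and PLXNA1 had a limma adjusted p = 0.14 without control clone 2. CDK6 was the concordant member among 24 G1 regulators, of which 3 rose and 1 fell (median change -0.0064). The CDK inhibitor CDKN1B rose by 0.59 and 0.38 and stood just outside the limit at 0.63 of equality. DMTF1, on chromosome 7 like CDK6, rose by 0.75 and 1.91, and the D cyclin CCND2 fell by 0.21 and 0.73. Of 50 S phase and mitosis genes MCM2 and DBF4 rose, both unequally (median change 0.078).

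Of 6 measured partners of TIP-1 none was called (median change -0.043), where 4.62% of all rows were called. Among 25 Wnt/beta-catenin targets, 1 rose and 1 fell: WNT5A fell concordantly (-0.57 and -0.48) and MYC rose unequally (0.59 and 0.27), with a median change of -0.044. Of 33 TGF-beta and YAP genes 4 rose and 4 fell (median change -0.00063), PMEPA1 alone concordantly (-0.32 and -0.38). By p the leading members were NUAK2 (0.40 and 0.79), IGFBP3 (-0.45 and -0.84) and the tissue factor gene F3 (-0.33 and -0.72), all unequal. Of 25 genes of metastasis to lung and bone 4 fell and 1 rose (median change -0.087), with ADAMTS1 and ANGPTL4 concordant and FGF5 (-0.55 and -0.29), CCN2 (-0.53 and -0.09) and FST (0.19 and 0.45) unequal. CDA was the 1 of 36 nucleotide salvage and synthesis genes that was called (median change 0.022), AGO2 the 1 of 16 of the small RNA machinery (0.072) and TNFRSF10B the 1 of 23 p53 targets (-0.0058), all 3 unequal. A single call in a list of this size lies near the 4.62% of all rows called. Of 7 leukocyte markers LCP1 and LAPTM5 fell (median change -0.043), LAPTM5 concordantly (-0.32 and -0.24), while the group means of PTPRC, which defines these cells, lay between 4.97 and 5.16. LAPTM5 was called in 0 of the 6 fits that leave out a clone (limma adjusted p up to 0.27). WNT5A and PMEPA1 reached 0.19 and 0.28 without control clone 2.

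The share of concordant genes differed between chromosomes, which was described and not tested. Of 182 concordant genes that were higher, 30 (16.5%) lie on chromosome 7, which holds 4.53% of the genes placed, and 18 (9.89%) on chromosome 9, which holds 3.98%. Some other chromosomes were above their share too, such as 21 (3.3% against 1.28%), and others below it, such as 11 (1.65% against 6.7%). Of 101 concordant genes that were lower, 2 (1.98%) lie on chromosome 7 and 0 on chromosome 9. When concordant genes of the same direction no more than 5 places apart in gene order were joined, 11 runs of 3 or more genes came out, and all 44 genes in them were higher. The longest, of 8 genes on chromosome 7, held CLDN12, CDK14, AKAP9, CYP51A1, ANKIB1, RBM48, CDK6 and VPS50, with changes for both hairpins from 0.50 to 1.26. Another on the same chromosome held RFC2 (0.56), GTF2I (0.77), PMS2P3 (0.45) and HIP1 (0.36), and the short arm genes STK11 and POLR2E on chromosome 19 lay in a run of 6 with changes from 0.30 to 0.56. Among the 15 largest increases 8 lie on chromosome 7 (SEMA3A, CDK6, RBM48, BUD23, IGF2BP3, RSBN1L, BAIAP2L1 and VPS50), and among the 15 largest decreases 0 do. Without the rows of 1 gene symbol placed on chromosome 7 the concordant rows numbered 173 higher and 113 lower. Rows with several symbols were not placed and stayed in. Whether copy number differed between the clones was not tested.

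**Figure D4:**
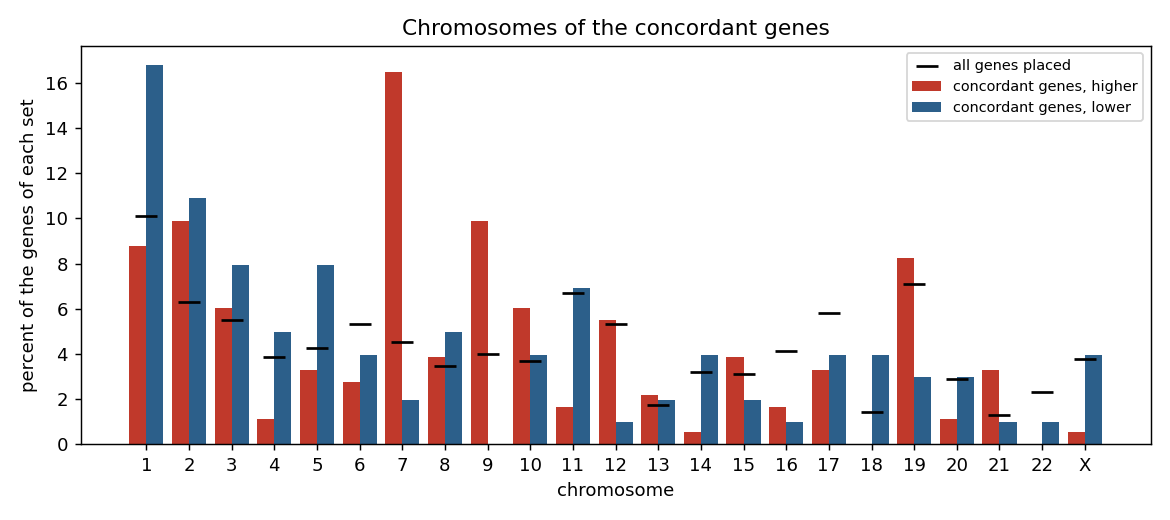
Share of the concordant genes on each chromosome, red for the 182 that were higher and blue for the 101 that were lower, with a black bar for the share of all genes placed. Chromosomes 7 (16.5%) and 9 (9.89%), among others, hold more of the higher genes than of all genes (4.53% and 3.98%).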

How the data were processed

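Per the series' design text, the authors processed the arrays with the Affymetrix Exon Array Computational Tool. The deposited values are normalized log2 signals per probe set. The log2 base was taken from their range (2.29 to 14.65), and its settings were not stated. Of 33297 rows, 19460 carried 1 gene symbol and 1754 several in the platform's probe table, and these 21214 were tested. Rows were fitted with limma 3.58.1 in R 4.3.3 (3 groups, lmFit and eBayes, 3 residual and 5.31 prior degrees of freedom, two-sided, Benjamini-Hochberg adjusted p under 0.05), without further scaling. The fit was checked on simulated data. Figures used matplotlib 3.10.9 in Python 3.11.15.

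The members and the 31 gene lists were chosen with earlier results of these data known, and 1 list is not reported here. A gene with several rows entered a list by its brightest row. The text names TAX1BP3, the 15 concordant protein-coding genes each way with the largest smaller hairpin change, the 5 largest unequal changes each way, the rows nearest the limit and up to 4 called members of each list by p. Other concordant list members and genes in runs were named after their values were seen. Genes were placed with RefSeq GRCh38.p14. Alternatives covered the rows tested, normalization, the variance model, the grouping of clones, a replicate block, each array left out and the limit for agreement. Leaving out the rows of 1 symbol placed on chromosome 7 was added after seeing the data.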

Additional observations from a re-analysis of the deposited data

Results flagged for a closer look

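The change with shRNA 159 was compared with the change with shRNA 162 for each named gene, as the difference between hairpins (limma adjusted p under 0.05 for each gene listed here). Among the targeted gene and the concordant genes the differences, shRNA 159 minus 162 on the log2 scale, were 0.47 for TAX1BP3, 0.35 for VPS50, 0.44 for SPANXB1, 0.38 for RGS4 and -0.48 for SERPINB9. They agreed in size by the limit of 2/3, so a limit on the ratio and a test of the difference do not pick the same genes. Among the unequal increases they were 2.82 for ELAPOR2, 1.51 for TMEM243, 1.71 for SLC25A40, 1.73 for DBF4 and -1.38 for GRPR. Among the unequal decreases they were 3.23 for PHGDH, 1.03 for LCP1, 1.10 for SMARCA1, 0.77 for CDA and 1.92 for CYP24A1, all with the larger decrease under shRNA 162.

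Rows without a gene symbol took no part in the comparisons above. When all 33297 rows were fitted together, 32 of the 12083 rows without a symbol were called and 12 were concordant. In that same fit 194 of the 21214 rows with a symbol were called. Over all 33297 rows it called 146 higher and 80 lower, with 55 and 26 concordant. The largest smaller hairpin change among the 12 concordant rows without a symbol was 1.03. Their genes were not analysed here.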

How the results depend on the processing

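The change of TAX1BP3 kept its direction and its call under all settings, between -1.39 and -1.49 with 1 clone left out. All 107 other named rows kept their direction, which settings that alter only the error cannot change. Of these 107 calls, 85 were lost with the random block, 74 as 1 group, 46 with all rows of the table, and 48 and 46 without control clones 1 and 2. Counts moved more. With the brighter rows only, 1346 rows were called higher and 646 lower, and 409 were concordant and higher. With a variance trend the counts were 1511 and 754 called and 457 and 211 concordant. With all rows of the table they were 146 and 80, and 55 and 26. With the 4 shRNA clones as 1 group 45 were higher and 26 lower, and with the hairpin as a random block 14 and 13, all concordant. A limit for agreement of 0.5 gave 320 concordant rows higher, and a limit of 0.8 gave 115 higher and 57 lower. With 1 clone left out, called rows ranged from 113 to 789 higher and 66 to 349 lower, and concordant rows from 38 to 310 and 24 to 105. The cause was not tested. The replicate block gave 650 and 361 called and 217 and 123 concordant. The clone numbers were not taken to pair the samples in the reported fit. Deviations of same-numbered clones correlated at -0.052 (control and shRNA 162), 0.26 (control and shRNA 159) and -0.028 (shRNA 162 and shRNA 159). With a single difference between clones per group, these values cannot settle whether same-numbered clones shared a batch, which was not tested. Quantile normalization and identical rows counted once stayed within 1.5 times. Signal near background limits the dim rows.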

Other observations

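Small nucleolar RNAs, which guide the modification of ribosomal and spliceosomal RNA, were higher where they were called. Of 178 rows for such RNAs 15 rose and 0 fell, against 3.01% and 1.61% of all rows, and 9 (5.06%) were concordant, against 1.56% of all rows. Their median change over all 178 rows was 0.12. The largest concordant changes were those of SNORA38B and SNORD116-14, both at 0.61. The concordant rows were rather dim, with a median control level of 6.71, and many such genes have close copies or lie within introns of other genes, so their identity is uncertain. Long non-coding RNAs had 2 concordant rows higher and 4 lower among 690 (0.87%). These classes were picked after their values were seen.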
